A study of Mus musculus with 12 samples.

Results

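A set of 9 genes of hepatic carbohydrate handling was followed across the liver RNA-seq series, namely Gys2, Pygl, Ppp1r3c, Ppp1r3b, Pck1, Fbp1, G6pc, Slc2a2 and Pklr. They were chosen by symbol as named enzymes, transporters and glycogen regulators, with earlier results of these data known. They are 9 of the 22322 gene symbols in the files, and for each symbol the transcript with the highest mean level was used. All 9 passed the filter on low values (a group mean of 1 RPKM or more in any group), as did 10799 symbols in all. RPKM is a read number divided by transcript length and by sequencing depth, which allows a rough comparison of levels between genes. Such a comparison depends on the transcript used and on the counting rule, which is not given.

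The samples came from mice labelled C57BL/6 (C57BL/6J in the study's methods) of 8 weeks of age, kept in constant darkness before the livers were taken, at circadian time 0 h (CT0, when the lights would have come on) or 12 h (CT12, when they would have gone off). Wild-type (WT) mice carried both copies of Bmal1 with loxP sites around exon 8, which encodes part of the bHLH domain. Knockout (KO) mice carried the same floxed alleles together with CRE recombinase under a liver-specific promoter. No CRE was stated for the WT mice, so an effect of the recombinase and an effect of losing Bmal1 cannot be told apart. Each of the 4 groups held 3 libraries. The study's methods describe RNA of 3 KO and 3 WT mice killed at CT0 and CT12, while a label of the series speaks of 2 mice per genotype and time. Whether the 3 libraries were 3 mice was therefore not settled, and p-values measure only the spread between these samples, which may be technical in part. In whole liver, fewer cells of a type and less RNA per cell cannot be told apart.

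Liver cells store glucose as glycogen when food is plentiful and release glucose into the blood between meals. Glycogen synthase lengthens the glycogen chain and glycogen phosphorylase shortens it, and regulatory subunits bring protein phosphatase 1 to the glycogen particle, where it activates the former enzyme and inactivates the latter. Between meals the liver also makes new glucose from lactate and amino acids (gluconeogenesis), whereas pyruvate kinase closes the opposing pathway, glycolysis. Feeding and fasting, insulin and glucagon, and the circadian clock are all known to act on these genes in liver.

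The depth recovered from the values was 11463348 to 19019154 reads per sample, and a member had 132 to 45508 reads in a sample. The counting error at the lowest of these was 8.7%. Arntl, which encodes BMAL1, was at 15.7 to 16.3 RPKM in the WT samples and at 5.73 to 7.45 RPKM in the KO samples at CT0. At CT12 it was at 0.68 to 1.26 RPKM in WT and at 3.59 to 4.37 RPKM in KO. The targeted gene was therefore lower in KO at CT0 but higher at CT12 (-1.21 and 1.29 on the log2 scale), and these values cover the whole transcript, with the floxed exon not read on its own. One library stood apart, KO CT0 replicate 1, in which 1.45% of genes lay at least 1 log2 unit from the other samples of its group, against 0.278% to 0.922% in the other 11 libraries. Differences of the members between single groups, and interactions, that leaving it out moved by over 1.5 times or across the threshold are given with and without it. Of the differences averaged over times or genotypes, not all such moves are given. Hepatocyte markers were present in every sample, but their summed level was 36900 to 49400 RPKM in WT and 24600 to 33300 RPKM in KO. Of the 6 hepatocyte markers, Alb passed the test as lower in KO at both times (-0.93 and -1.05 on the log2 scale, adjusted p = 0.0045 and 0.0003) and the other 5 did not. The 5 bile duct markers summed to 27.2 to 64.8 RPKM in WT samples and 88.4 to 152 RPKM in KO samples, and Spp1 was the 1 of them that passed at both times. Of 4 pancreatic markers, Cpa1 and Pnlip were at 0 in every sample and Prss1 was at or near 0. The fourth, Cela1, averaged 8.93 and 4.77 RPKM in WT and 17.2 and 17.4 RPKM in KO at CT0 and CT12, and was higher in KO at CT12 (1.69, adjusted p = 0.00032). The median CT12 minus CT0 differences of the marker lists in WT were -0.51 for 5 Kupffer cell, -0.52 for 5 endothelial, -0.49 for 5 stellate and -0.44 for 4 tested bile duct markers, beside -0.23 for the 6 hepatocyte markers. Of these, Emr1, Dcn, Colec11 and Krt7 passed the test, all as lower at CT12. In KO the same medians were -0.28, -0.53, -0.20, -0.52 and -0.07, and none of these markers passed. The summed levels in the WT samples at CT0 and at CT12 were 97.4 to 131 and 64.8 to 94.4 RPKM for the Kupffer cell list, 78.8 to 97.4 and 52.7 to 62.8 RPKM for the endothelial list, and 138 to 180 and 103 to 118 RPKM for the stellate list. The part of these shifts in the results on the members was not tested.

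At CT0, none of the 9 members passed the threshold between KO and WT by limma (Benjamini-Hochberg adjusted p under 0.05, on log2(RPKM + 1)), where 1.86% of all tested genes did. At CT12, 3 of 9 passed, Ppp1r3c as higher and Gys2 and Slc2a2 as lower in KO, against 10.5% of all tested genes. The median difference of the members was 0.25 at CT0 and -0.18 at CT12, beside 0.01 and 0.08 over all tested genes. Without KO CT0 replicate 1 the median at CT0 was 0.03. Averaged over both times, 3 of 9 members passed between genotypes (11.5% of all tested genes), Ppp1r3c as higher and Gys2 and Slc2a2 as lower. Between CT12 and CT0 in WT, 4 of 9 members passed, where 11.6% of all tested genes did. Gys2, Pck1 and Ppp1r3b were higher and Ppp1r3c was lower at CT12, and the members' median of 0.50 stood beside -0.07 over all tested genes. In KO, 1 of 9 passed, Pck1, against 2.43% of all tested genes, and the median was -0.29 beside 0, or -0.10 without KO CT0 replicate 1. Averaged over both genotypes, 4 of 9 members passed between the times (16.6% of all tested genes), Gys2 and Pck1 as higher and Ppp1r3c and Pygl as lower at CT12. The interaction, which is the KO minus WT difference at CT12 less that at CT0, passed for 2 of 9 members, Gys2 and Ppp1r3c, against 1.49% of all tested genes. The comparisons share samples, so their counts are not independent of each other. The members were chosen with earlier results of these data known, so a count above the share over all genes is no test of the set.

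**Figure D1:**
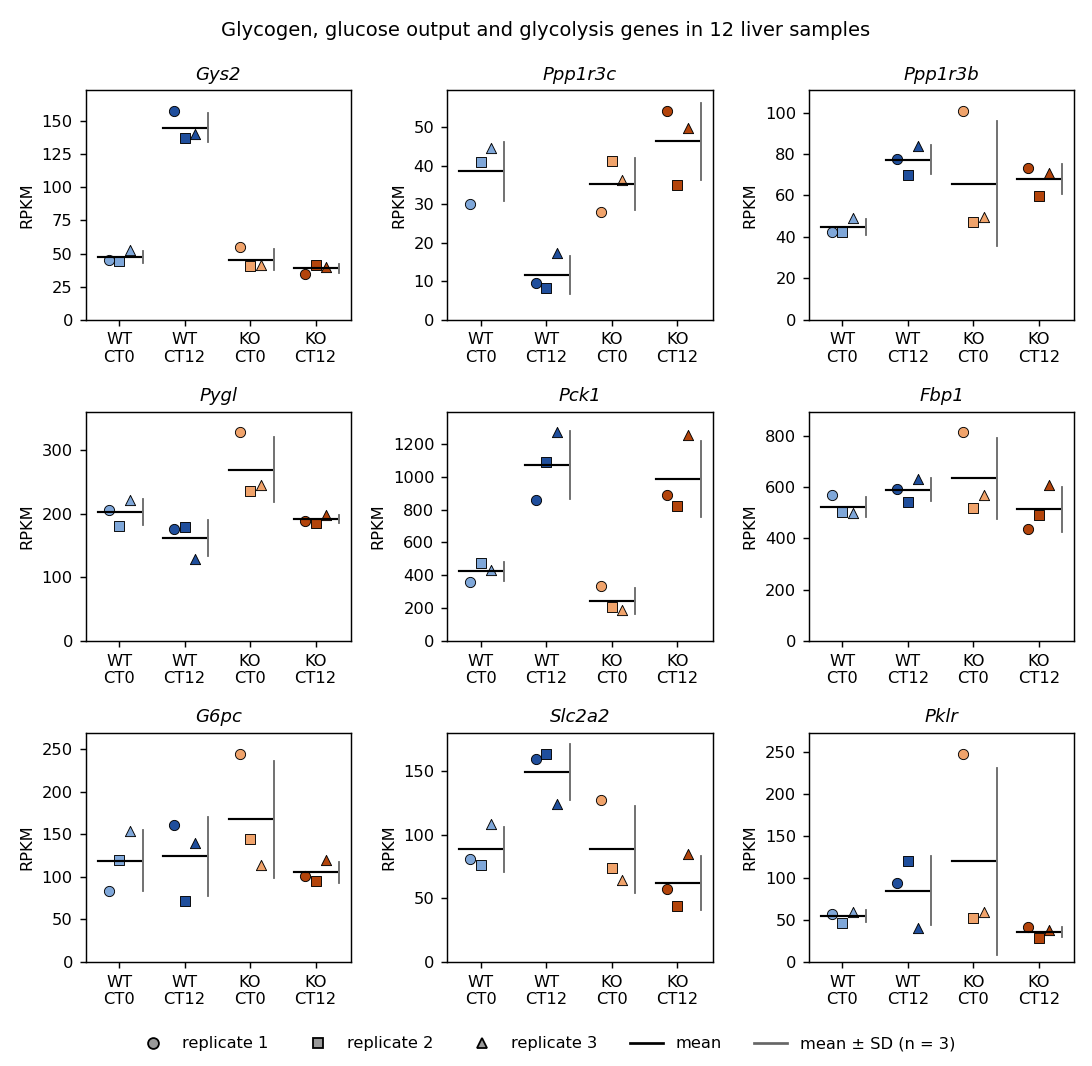
RPKM of each of the 9 genes (vertical axes, linear, from 0) in the 12 samples, by group on the horizontal axes, with the replicate number as the symbol, the mean as a bar and the mean ± SD (n = 3) as a line. Gys2 stood at 137 to 157 RPKM in the WT CT12 samples and at 34.5 to 54.8 RPKM in all others, and Ppp1r3c was lowest in WT CT12.

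Gys2 encodes the liver isoform of glycogen synthase and lies on chr6:142371133-142421629, minus strand, of NCBIM37. Its levels in WT were 45.0, 44.1 and 52.4 RPKM at CT0 and 157, 137 and 140.03 RPKM at CT12. In KO they were 54.8, 40.5 and 41.2 RPKM at CT0 and 34.5, 41.4 and 40.2 RPKM at CT12. The 3 WT CT12 samples were high, and the other 9 formed a single low range, so that WT and KO overlapped at CT0 and were far apart at CT12. Gys2 rose between the times in WT by 1.60 on the log2 scale (standard error 0.13, adjusted p = 1.1e-05), 3.07 times by the RPKM means. In KO the difference was -0.22 with a 95% interval from -0.49 to 0.06 (adjusted p = 0.36). Between genotypes Gys2 was lower in KO at CT12 by -1.88 (standard error 0.13, adjusted p = 3.4e-06), and at CT0 the difference was -0.06 (interval -0.33 to 0.21, adjusted p = 0.88). The interaction was -1.82 (interval -2.2 to -1.43, adjusted p = 0.00045), and it passed under every alternative run. Gys2 also had the smallest spread within groups of the 9 genes, an SD of 0.16 on the log2 scale, equal to the median over all tested genes.

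Pygl encodes the liver isoform of glycogen phosphorylase, the enzyme that releases glucose units from glycogen (chr12:71291798-71328670, minus strand). It was read at 206, 181 and 221 RPKM in WT and at 328, 235 and 245 RPKM in KO at CT0. At CT12 it was at 177, 179.9 and 129 RPKM in WT and at 189, 186 and 199 RPKM in KO. The KO samples lay above the WT samples at both times, but by small margins, and neither difference passed. These were 0.40 at CT0 (interval 0.07 to 0.72, adjusted p = 0.24) and 0.26 at CT12 (interval -0.07 to 0.58, adjusted p = 0.32). Pygl fell by 0.40 from CT0 to CT12 averaged over both genotypes (adjusted p = 0.023), and without WT CT0 replicate 3 the adjusted p was 0.056. The interaction of Pygl was -0.14 (interval -0.6 to 0.32, adjusted p = 0.85).

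The level of synthase relative to phosphorylase transcript was taken in each sample as Gys2 over Pygl. This ratio was 0.219, 0.243 and 0.237 in WT at CT0 and 0.89, 0.764 and 1.08 in WT at CT12. In KO it was 0.167, 0.172 and 0.168 at CT0 and 0.183, 0.222 and 0.202 at CT12. The ratio was thus far higher in WT at CT12 than in any other group, and the lowest values were the 3 of KO at CT0, below the 3 of WT at CT0. The ratio was not tested on its own.

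Ppp1r3c encodes PTG (protein targeting to glycogen), one of the subunits that bring protein phosphatase 1 to glycogen, and lies on chr19:36806227-36811143, minus strand. Its promoter is shown because this gene had the largest rise in KO at CT12 of the 9 genes and its promoter holds the hexamer CACGTG, the sequence that BMAL1 and CLOCK are known to bind. It spans chr19:36811045-36811344, minus strand, from 250 bases before to 50 bases after the start in the RefSeq table, matched on NCBIM37, and capitals mark CACGTT and CACGTG, in that order from the 5′ end.
Ppp1r3c: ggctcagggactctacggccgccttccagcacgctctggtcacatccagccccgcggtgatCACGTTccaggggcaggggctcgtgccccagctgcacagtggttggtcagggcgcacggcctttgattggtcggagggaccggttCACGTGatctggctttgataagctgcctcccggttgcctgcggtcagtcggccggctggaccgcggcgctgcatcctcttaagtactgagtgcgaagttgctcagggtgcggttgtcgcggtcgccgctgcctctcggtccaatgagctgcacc
CACGTG, which reads the same on either strand, begins at position -104 from the start. CACGTT begins at -189, in the direction of the gene. On either strand, CACGTG occurred in 7.15% and CACGTT in 4.69% of 32817 mouse promoters of the same length. Such a match describes letters and not a bound site.

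Ppp1r3c moved in the direction opposite to Gys2. It was read at 30.1, 41.1 and 44.6 RPKM in WT at CT0 and at 9.62, 8.14 and 17.3 RPKM in WT at CT12. In KO the levels were 27.9, 41.3 and 36.4 RPKM at CT0 and 54.2, 35.1 and 49.8 RPKM at CT12. The 3 WT CT12 samples were the lowest of the 12 and were apart from all others, and KO overlapped WT at CT0. In WT the gene fell by 1.69 on the log2 scale from CT0 to CT12 (standard error 0.26, adjusted p = 0.0015). The difference between the times in KO was 0.38 (interval -0.18 to 0.94, adjusted p = 0.44). At CT12 Ppp1r3c was higher in KO by 1.94 (standard error 0.26, adjusted p = 0.00045), 3.97 times by the RPKM means, and at CT0 the difference was -0.13 (interval -0.68 to 0.43, adjusted p = 0.88). Averaged over both genotypes the difference between the times was -0.65 (adjusted p = 0.029), a call that ended on leaving out WT CT0 replicate 2 or 3, WT CT12 replicate 1 or 2, KO CT0 replicate 2 or 3, or KO CT12 replicate 2 (adjusted p of 0.059 to 0.069). The interaction was 2.07 (interval 1.28 to 2.86, adjusted p = 0.015) and was lost only with an unmoderated model (adjusted p = 0.087).

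**Figure D2:**
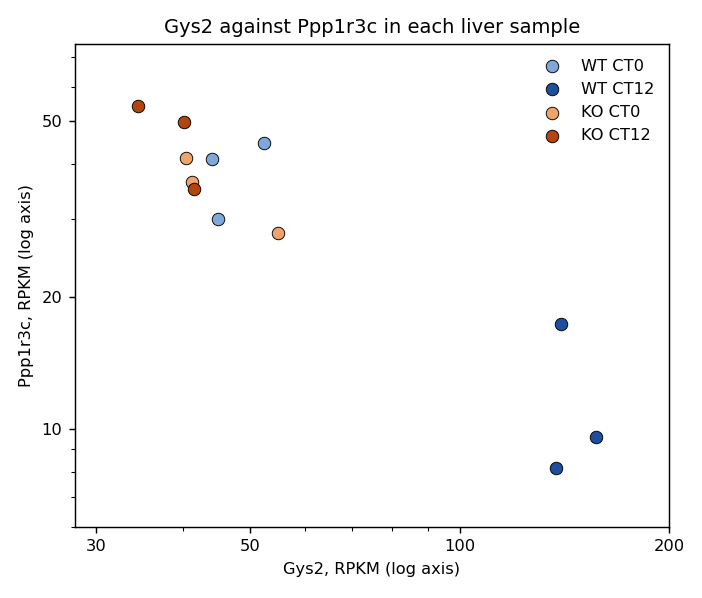
Gys2 (horizontal log axis, RPKM) against Ppp1r3c (vertical log axis, RPKM) in each of the 12 samples, coloured by group. The 3 WT CT12 samples sit apart at 137 to 157 RPKM of Gys2 and 8.14 to 17.3 RPKM of Ppp1r3c, and the other 9 samples share 1 region.

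Ppp1r3b encodes GL, the glycogen-targeting subunit of protein phosphatase 1 that is most typical of liver (chr8:36438795-36451178, plus strand). In WT it was at 42.3, 42.4 and 49.1 RPKM at CT0 and at 77.8, 70.0 and 83.9 RPKM at CT12. In KO it was at 101, 47.3 and 49.4 RPKM at CT0 and at 73.2, 59.9 and 71.1 RPKM at CT12. The 2 times were separate in WT, whereas in KO the highest value of all belonged to KO CT0 replicate 1 and its group mates were near the WT CT0 level. Ppp1r3b rose in WT by 0.78 (standard error 0.23, adjusted p = 0.044). This call was lost under 11 of 23 alternatives, among them leaving out any WT library (adjusted p of 0.067 to 0.14) or any KO CT12 library (0.054 or 0.055). In KO the difference between the times was 0.13 (interval -0.36 to 0.62, adjusted p = 0.79). Without KO CT0 replicate 1 the difference averaged over both genotypes was 0.63 (adjusted p = 0.00044), beside 0.46 (adjusted p = 0.072) with it. The interaction of Ppp1r3b was -0.65 (adjusted p = 0.44), so a dependence of its time difference on genotype was not shown. Without that library the difference in KO was 0.48 (adjusted p = 0.064) and the interaction -0.30 (adjusted p = 0.49), while the adjusted p of the rise in WT was 0.00071.

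Because Ppp1r3b and Ppp1r3c encode subunits with the same partner, their levels were set side by side as a ratio. Ppp1r3b over Ppp1r3c was 1.41, 1.03 and 1.1 in WT at CT0 and 8.09, 8.6 and 4.85 in WT at CT12. In KO it was 3.6, 1.14 and 1.35 at CT0 and 1.35, 1.71 and 1.43 at CT12. The WT CT12 samples were therefore the ones in which Ppp1r3b transcripts far outnumbered those of Ppp1r3c, although KO CT0 replicate 1 also had a raised ratio. The other 5 glycogen-targeting subunits listed, Ppp1r3a, Ppp1r3d, Ppp1r3e, Ppp1r3f and Ppp1r3g, had a mean under 1 RPKM in all groups and were not tested.

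Pck1 encodes the cytosolic phosphoenolpyruvate carboxykinase, which catalyses a committed step of gluconeogenesis (chr2:172978549-172984774, plus strand). Its promoter is shown because it is the member whose time difference passed in both genotypes. It spans chr2:172978324-172978623 of NCBIM37, plus strand, in the RefSeq table, and capitals mark TGACG on the reverse strand (CGTCA as printed). TGACG is the core of the cyclic AMP response element, TGACGTCA.
Pck1: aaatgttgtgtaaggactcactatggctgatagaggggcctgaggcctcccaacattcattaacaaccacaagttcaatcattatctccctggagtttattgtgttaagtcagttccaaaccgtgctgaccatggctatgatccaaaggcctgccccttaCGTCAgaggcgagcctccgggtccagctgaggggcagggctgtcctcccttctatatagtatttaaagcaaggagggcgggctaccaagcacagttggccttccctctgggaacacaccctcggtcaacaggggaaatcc
The match begins at position -90, and TGACG occurred in 20.8% of all promoters on either strand. The full TGACGTCA, which contains TGACG and occurred in 1.79% of all promoters, was not found in these letters.

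Pck1 had 362, 475 and 435 RPKM in WT at CT0 and 859.5, 1089.5 and 1270.05 RPKM in WT at CT12. In KO the levels were 337, 209 and 188 RPKM at CT0 and 891, 821 and 1252 RPKM at CT12. Every CT12 sample lay above every CT0 sample in both genotypes, and at CT0 the KO samples lay below the WT samples. The gene rose by 1.33 in WT (standard error 0.23, adjusted p = 0.0032) and by 2.03 in KO (standard error 0.23, adjusted p = 0.0015), or 2.53 and 4.04 times by the RPKM means. These changes were not shown to differ, since the interaction was 0.70 (interval 0 to 1.4, adjusted p = 0.41). At CT12 KO and WT differed by -0.13 (interval -0.62 to 0.37, adjusted p = 0.78). At CT0 the difference was -0.83 (interval -1.32 to -0.33, adjusted p = 0.099) with all samples and -1.08 (adjusted p = 0.032) without KO CT0 replicate 1, the highest Pck1 value of its group. Averaged over both times the genotype difference was -0.48 (adjusted p = 0.08), and the adjusted p was 0.015 without KO CT0 replicate 1, 0.044 without KO CT12 replicate 3 and 0.048 with 75th percentile scaling.

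Fbp1 encodes fructose bisphosphatase, the next regulated enzyme on the way to glucose, and was among the steadiest members (chr13:62966126-62974118, minus strand). Over the 12 samples it ran from 438 to 813 RPKM, and its group means were 524 ± 39.1 and 589.6 ± 45.4 RPKM for WT and 634 ± 158 and 513 ± 86.5 RPKM for KO at the earlier and the later time (SD, n = 3 each). None of its comparisons passed, and the largest was the interaction of -0.46 (adjusted p = 0.45). The transcript used is a short one of 612 bases, and the longer Fbp1 transcript of 1479 bases had group means of 461 to 577 RPKM in the same order.

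G6pc encodes the catalytic subunit of the phosphatase that frees glucose for release, the last step shared by gluconeogenesis and glycogen breakdown (chr11:101228875-101239217, plus strand). It was at 83.2, 119.5 and 154 RPKM in WT at CT0, 160.5, 72.1 and 139.6 RPKM in WT at CT12, 245, 144 and 114 RPKM in KO at CT0 and 101, 95.2 and 119.6 RPKM in KO at CT12. All 4 groups overlapped, and no comparison of G6pc passed. The spread within its groups, an SD of 0.48 on the log2 scale, was larger than that of 97.2% of tested genes, and at CT12 the interval of the genotype difference still ran from -0.87 to 0.55. These samples therefore did not settle whether G6pc shifted by an amount within that interval.

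Slc2a2 encodes GLUT2, the main glucose transporter of the hepatocyte surface (chr3:28596825-28627278, plus strand). Its promoter is shown because it was lower in KO at CT12. It spans chr3:28596575-28596874 of NCBIM37, plus strand, in the RefSeq table, and capitals mark AGGTCA, the core hexamer bound by many nuclear receptors, which begins at position -21.
Slc2a2: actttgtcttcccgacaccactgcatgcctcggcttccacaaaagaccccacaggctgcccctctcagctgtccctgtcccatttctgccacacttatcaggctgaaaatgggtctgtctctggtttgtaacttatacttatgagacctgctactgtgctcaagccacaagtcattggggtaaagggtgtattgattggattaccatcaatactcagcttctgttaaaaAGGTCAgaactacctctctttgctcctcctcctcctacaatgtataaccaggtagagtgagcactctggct
AGGTCA occurred in 16.3% of all promoters on either strand, and promoters of G6pc, Pygl and Pklr held it as well. Of the 9 genes, 7 had an entry in the table, with 8 promoters. G6pc also held TTACGTAA, found in 0.119% of all promoters, and Pygl held TGACG, while neither Fbp1 nor a second Pklr promoter held any of the 7 motifs. TTATGTAA (0.935% of all promoters) was in none of the 8. Gys2 and Ppp1r3b had no entry.

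In WT, Slc2a2 was at 81.0, 76.0 and 109 RPKM at CT0 and at 159.8, 164 and 124 RPKM at CT12. In KO it was at 128, 73.8 and 64.2 RPKM at CT0 and at 57.0, 44.2 and 85.1 RPKM at CT12. The WT CT12 samples were above the WT CT0 and the KO CT12 samples without overlap, and KO CT0 overlapped WT CT0. Slc2a2 was lower in KO at CT12 by -1.29 (standard error 0.27, adjusted p = 0.0093), 0.42 times the WT level by the RPKM means, and this passed under every alternative run. At CT0 the difference was -0.05 (interval -0.63 to 0.54, adjusted p = 0.96). Averaged over both times it was -0.67 (adjusted p = 0.041). That call was lost without any 1 of 9 libraries, the exceptions being WT CT12 replicate 3, KO CT0 replicate 1 and KO CT12 replicate 3, with an adjusted p of 0.055 to 0.098. The difference between the times in WT, 0.75, had an adjusted p of 0.092 with all samples and of 0.043 without KO CT0 replicate 1. The interaction of -1.24 did not pass (interval -2.07 to -0.41, adjusted p = 0.17), so the genotype difference was not shown to depend on time.

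Pklr encodes the liver and red cell pyruvate kinase, the last enzyme of glycolysis and a known target of the carbohydrate-responsive factor encoded by Mlxipl. In WT it was at 56.9, 46.7 and 60.0 RPKM at CT0 and at 93.6, 120.4 and 40.8 RPKM at CT12. In KO it was at 248, 51.9 and 59.0 RPKM at CT0 and at 41.1, 28.6 and 37.5 RPKM at CT12. A single sample, KO CT0 replicate 1, set the KO CT0 mean. The KO CT12 samples were the lowest group, although in the transcript used the highest of them overlapped the lowest of WT CT12. The difference at CT12 was -1.11 (interval -2.22 to 0.01, adjusted p = 0.2). Leaving out KO CT0 replicate 1 does not touch either of those groups but enters the shared spread, and the adjusted p was then 0.041. Between the times Pklr differed by -1.35 in KO (interval -2.46 to -0.23, adjusted p = 0.17), and the interaction of -1.85 did not pass (adjusted p = 0.31). Without KO CT0 replicate 1 these were -0.63 (adjusted p = 0.36) and -1.14 (adjusted p = 0.36), and the genotype difference of Pklr at CT0 was 0.03 in place of 0.74. The within-group SD of 0.76 was larger than that of 99.4% of tested genes. The transcript used has 349 bases (chr3:88940501-88945461, plus strand). In the longer Pklr transcript of 2787 bases KO CT0 replicate 1 was also high, at 192 RPKM beside 40.5 and 42.5 RPKM. The KO CT12 samples of that longer transcript, at 19.7 to 29.9 RPKM, did not overlap its WT CT12 samples, at 33.7 to 90.7 RPKM.

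**Figure D3:**
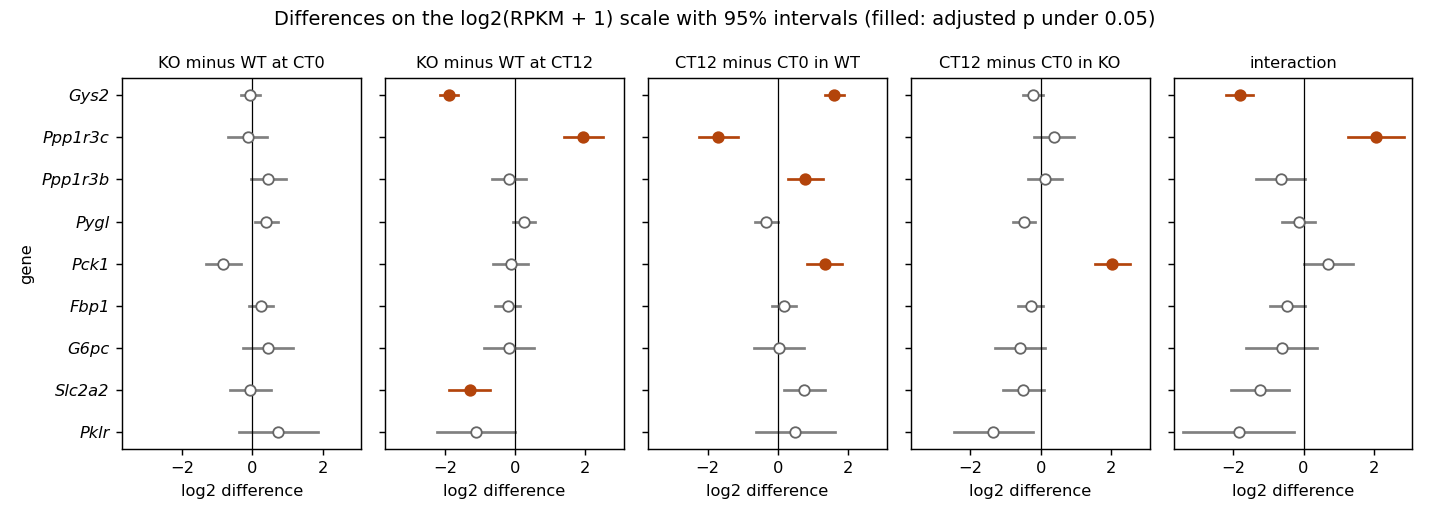
Log2 differences of the 9 genes on the log2(RPKM + 1) scale (horizontal axes) with 95% intervals as lines, for 4 comparisons of groups and the interaction, with filled points where the limma adjusted p was under 0.05. Gys2 and Ppp1r3c pass in opposite directions at CT12, in the WT time comparison and in the interaction, and Pck1 alone passes between the times in KO.

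The order of the members' levels depended on the group, with Pklr read from its short transcript. The Pklr transcript of 2787 bases averaged 40.8 RPKM in WT at CT0, below Gys2 (47.2 RPKM) and Ppp1r3b (44.6 RPKM). In WT at CT0 Fbp1 was highest at 524 RPKM, followed by Pck1 at 424 RPKM and Pygl at 203 RPKM, each apart from the next, and Pklr, Gys2, Ppp1r3b and Ppp1r3c followed each other at the low end with overlapping samples. In WT at CT12 Pck1 led at 1073 RPKM, and Pygl, Slc2a2, Gys2, G6pc, Pklr and Ppp1r3b each overlapped the next, while Ppp1r3c was apart and lowest at 11.7 RPKM. In KO at CT12 Pck1, Fbp1, Pygl and G6pc were each apart from the next, and the remaining 5 members, from Ppp1r3b at 68.0 RPKM to Pklr at 35.7 RPKM, overlapped in sequence. Gys2 was thus the fifth highest member in WT at CT12 and the eighth in KO at CT12, where it was under Ppp1r3c.

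The levels of gluconeogenic and glycolytic transcripts were compared as Pck1 over Pklr in each sample. Pklr was read from its short transcript, and the longer Pklr transcripts had lower means in every group. The ratio was 6.36, 10.2 and 7.24 in WT at CT0 and 9.18, 9.05 and 31.1 in WT at CT12. It was 1.36, 4.03 and 3.19 in KO at CT0 and 21.7, 28.7 and 33.3 in KO at CT12. The 2 times were therefore far apart in KO and overlapped in WT, with the KO CT0 samples below all WT samples, but the ratio was not tested on its own.

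**Figure D4:**
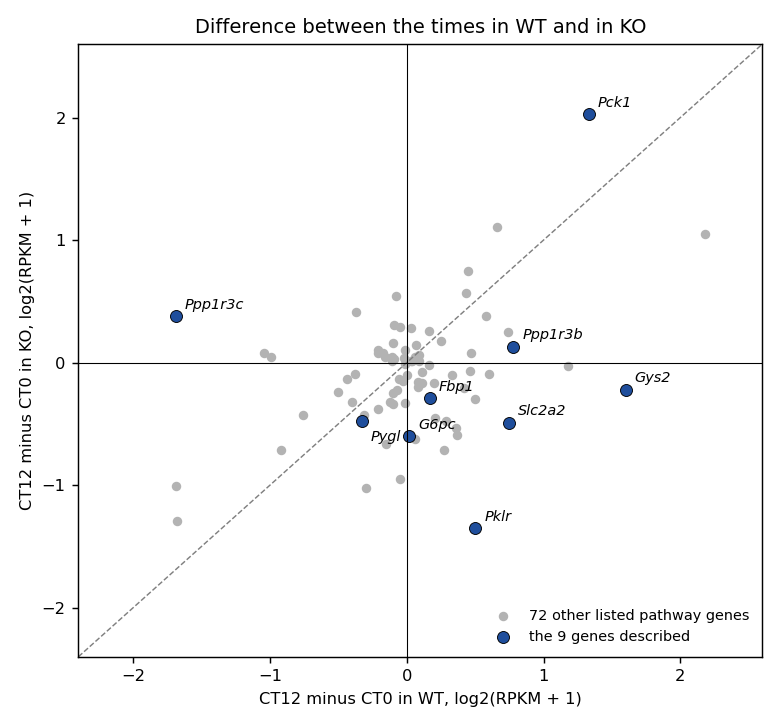
Log2 difference between CT12 and CT0 in WT (horizontal axis) against that in KO (vertical axis) on the log2(RPKM + 1) scale, for the 9 genes (blue) and 72 other listed carbohydrate genes (grey), with a dashed line where both are equal. Gys2 (1.60 in WT, -0.22 in KO) and Ppp1r3c (-1.69 in WT, 0.38 in KO) lie far from the line, and Pck1 (1.33 in WT, 2.03 in KO) lies above it.

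KO CT0 replicate 1 differed from its group mates in most members at once. It was higher than the mean of the other samples by 2.14 for Pklr, 1.04 for Ppp1r3b, 0.93 for G6pc, 0.88 for Slc2a2 and 0.76 for Pck1 on the log2 scale, and lower for Ppp1r3c (-0.46). Only 0.167% of tested genes lay as far off as Pklr in this library, and 1.23% as far as Ppp1r3b. The shares were 1.9% for G6pc, 2.27% for Slc2a2 and 3.55% for Pck1. They were larger for Fbp1 (7.17%), Ppp1r3c (12.2%), Pygl (12.8%) and Gys2 (14.8%). Without it the within-group SD of Ppp1r3b went from 0.32 to 0.13 and that of Pklr from 0.76 to 0.47. Among differences that did not pass either way, leaving it out moved those between genotypes at CT0 from -0.06 to -0.20 for Gys2, from 0.40 to 0.25 for Pygl, from -0.13 to 0.03 for Ppp1r3c and from -0.05 to -0.34 for Slc2a2. At CT0 the same differences moved from 0.46 to 0.15 for G6pc, from 0.25 to 0.06 for Fbp1 and from 0.46 to 0.12 for Ppp1r3b. Those between the times in KO moved from -0.22 to -0.08 for Gys2 and from 0.38 to 0.23 for Ppp1r3c. For G6pc, Fbp1 and Slc2a2 they moved from -0.60 to -0.29, from -0.29 to -0.10 and from -0.49 to -0.20. The interactions moved from -0.14 to 0.01 for Pygl, from -0.46 to -0.27 for Fbp1 and from -0.62 to -0.31 for G6pc. The cause was not tested.

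**Figure D5:**
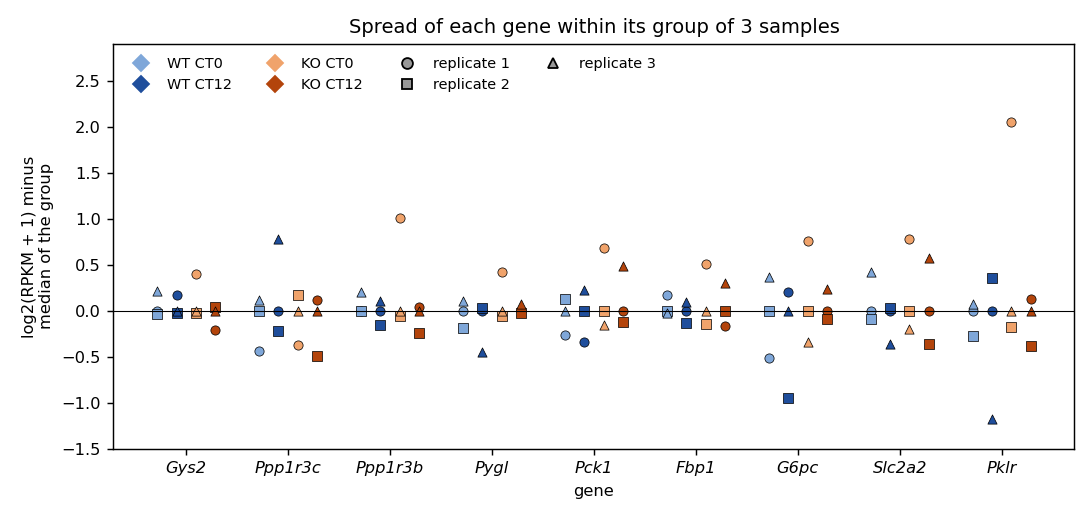
Deviation of each sample from the median of its group on the log2(RPKM + 1) scale (vertical axis) for the 9 genes (horizontal axis), with the group as the colour and the replicate number as the symbol. KO CT0 replicate 1 is the highest of its group in every gene but Ppp1r3c, by up to 2.05 for Pklr, and Gys2 has the narrowest spread.

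The 9 genes were then set beside 72 other tested genes of 6 lists, covering glucose output, glycolysis, glycogen metabolism, protein phosphatase 1 and its targeting subunits, regulators, and pyruvate entry with hexose or lactate transport. With the members included, 81 of the 90 listed genes were tested. Of the other 72 genes, 3 were higher and 0 lower in KO at CT0, and 7 were higher and 7 lower at CT12. Over all tested genes, 1.86% passed at CT0 and 10.5% at CT12. Between CT12 and CT0, 6 of the 72 were higher and 9 lower in WT, and 2 were higher and 3 lower in KO. The shares over all tested genes were 11.6% in WT and 2.43% in KO. The interaction passed for 2 of the 72, among them Slc16a1, beside 1.49% of all tested genes. The lists were chosen with earlier results of these data known, so these counts are no test of these genes as a set. All of the 62 calls by which these genes were to be named kept their direction under the alternatives, but 30 were lost at least once, so the genes named next are, where not stated otherwise, those whose call passed under every alternative run.

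Among the 18 genes of glycogen metabolism, 3 were lower and 1 was higher in KO at CT12, Gys2 included (10.5% of all tested genes passed). Pgm1, a phosphoglucomutase, was higher in KO averaged over both times (0.35, adjusted p = 0.01). Stbd1, a glycogen-binding protein, was higher at CT12 averaged over both genotypes (0.60, adjusted p = 0.0019). Of the catalytic subunits of protein phosphatase 1, Ppp1ca was higher in KO averaged over both times (0.34, adjusted p = 0.013).

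Of the 11 tested genes of glucose output, Slc2a2 was the only one that passed between genotypes at CT12 (10.5% of all tested genes did). Slc37a4, the transporter that carries glucose phosphate to the G6pc enzyme, rose in WT from 41.8 ± 9.01 to 95.6 ± 18.5 RPKM (SD, n = 3; 1.18 on the log2 scale, adjusted p = 0.021). Without WT CT0 replicate 2 its adjusted p was 0.081 and without WT CT12 replicate 1 it was 0.078. Its KO means were 61.2 ± 29.8 and 56.2 ± 9.58 RPKM at these times (SD, n = 3). The interaction of Slc37a4 did not pass (-1.21, adjusted p = 0.21).

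Of the 23 tested genes of glycolysis, 2 were higher and 1 lower in KO at CT12 (10.5% of all tested genes passed). Gckr was higher in KO at CT12 (0.76, adjusted p = 0.0022) and averaged over both times (0.72, adjusted p = 0.00027), with CT12 means of 67.9 ± 7.05 and 115 ± 9.59 RPKM for WT and KO (SD, n = 3). Pfkfb3, an enzyme that makes the allosteric activator of phosphofructokinase, rose in WT from 1.56 ± 0.764 to 10.3 ± 1.89 RPKM (SD, n = 3; 2.18, adjusted p = 0.0006). Its KO means were 2.23 ± 1.02 and 5.77 ± 2.39 RPKM (1.05, adjusted p = 0.08), and its interaction did not pass (-1.12, adjusted p = 0.26). Pfkfb2, which has the same activity, rose in WT by 0.66 (adjusted p = 0.0023) and in KO by 1.11 (adjusted p = 0.00066). Pkm, the other pyruvate kinase gene, fell by 0.92 in WT (adjusted p = 0.00018), where the difference of Pklr was 0.50 (adjusted p = 0.57). In KO Pkm differed by -0.71 (adjusted p = 0.0066), a call lost under 1 of 23 alternatives. The interaction of Pkm did not pass (0.20, adjusted p = 0.63).

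Of the 13 regulators, 1 was higher and 1 lower in KO at CT12 (10.5% of all tested genes passed). Irs2, an adaptor of the insulin receptor, was higher in KO at CT12 (1.11, adjusted p = 0.0047), and in WT it fell by 1.04 between CT0 and CT12 (adjusted p = 0.0076). In KO that time difference was 0.08 (adjusted p = 0.87), and the interaction of Irs2 did not pass (1.12, adjusted p = 0.098). Mlxipl, which encodes the factor named above with Pklr, differed by -0.95 in KO against WT at CT12 (adjusted p = 0.02), with means of 50.5 ± 8.55 and 25.7 ± 3.48 RPKM for WT and KO (SD, n = 3). It did not pass without WT CT12 replicate 2 or KO CT12 replicate 2 (adjusted p = 0.074 each) or KO CT12 replicate 3 (0.058).

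Of the 11 tested genes of pyruvate entry and transport, 2 were higher and 3 lower in KO at CT12 (10.5% of all tested genes passed). Slc16a1, a carrier of lactate and pyruvate, was higher in KO at CT12 (1.22, adjusted p = 9.6e-05) and fell by 0.99 between the times in WT (adjusted p = 0.00056), the direction of Ppp1r3c. Its group means at CT0 and CT12 were 17.9 ± 2.26 and 8.47 ± 0.911 RPKM for WT and 20.3 ± 2.74 and 21.1 ± 2.67 RPKM for KO (SD, n = 3). Pdk4, a kinase that switches off pyruvate dehydrogenase, was higher in KO at CT12 (1.26, adjusted p = 0.0054) and fell by 1.69 in WT (adjusted p = 0.00097). Its difference between the times in KO was -1.01 (adjusted p = 0.052), and its interaction did not pass (0.68, adjusted p = 0.45). The WT CT12 mean of Pdk4 was only 0.929 RPKM. Pdk2, another such kinase, differed by -0.56 in KO at CT12 (adjusted p = 0.012).

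The genes most like the members across the 12 samples were found by the root-mean-square difference of log2(RPKM + 1), each gene centred on its mean, as a description with no test. For Gys2 these were Pcsk4 (0.22), AC148977.1 (0.23) and Nampt (0.26), the last encoding the rate-limiting enzyme of NAD salvage. Nampt had group means of 11.1 and 41.9 RPKM in WT and of 12.4 and 14.9 RPKM in KO at CT0 and CT12. AC148977.1 had means of 0.195 and 2.145 RPKM in WT and of 0.108 and 0.0476 RPKM in KO. It passed the filter only through WT at CT12, and the pseudocount of 1 shrinks its differences. Pcsk4 was low as well, at 1.215 and 4.17 RPKM in WT and 0.963 and 0.9175 RPKM in KO. For Ppp1r3c they were Hsd3b7 (0.34), Crip2 (0.35) and Ddc (0.35), and Hsd3b7, an enzyme of bile acid synthesis, had means of 353 and 115 RPKM in WT and of 343 and 302 RPKM in KO. For Pck1 they were 1810055G02Rik (0.33), Il6ra (0.35) and Herpud1 (0.37), and for Slc2a2 they were Sbk1 (0.23), Inmt (0.24) and Fhad1 (0.27). Fhad1 also passed the filter only through WT at CT12, where its mean was 2.03 RPKM. The SD of the members themselves over the 12 samples was 0.79 for Gys2, 0.86 for Ppp1r3c, 0.97 for Pck1 and 0.59 for Slc2a2.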

How the data were processed

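The authors deposited 1 table of RPKM values per sample, for 46585 transcripts with gene symbols. The submitters' processing notes name TopHat2, bedtools 2.19.1 and mm9. The annotation release, the counting rule and the use of strand are not given in the sources used here. Depth was recovered from low values times transcript length (GENCODE vM1 on NCBIM37, lengths for 95.5% of rows), of which 94.9% to 95.7% per sample were whole reads within 0.02 reads. No replicates were near-identical. The highest-mean transcript per symbol was analysed as log2(RPKM + 1), with a pseudocount of 1, so differences of low genes are understated. Genes with a group mean of at least 1 RPKM entered a limma model (version 3.58.1 under R 4.3.3, functions lmFit and eBayes with trend) of 4 group means over the 12 samples, two-sided, with Benjamini-Hochberg adjustment over 10799 genes and a threshold of 0.05. The script was tested on simulated data. Figures were drawn with matplotlib 3.10.9 and pandas 2.3.3 under Python 3.11.15. Groups and replicate numbers came from the sample titles.

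The members and the gene lists were chosen with earlier results of these data known. All members were named, with at most 4 other genes per list and comparison by smallest adjusted p, and the 3 genes most like each of up to 4 members. Pgm2 was added beside Pgm1 for its level. Alternatives were a pseudocount of 0.1, other filters, quantile and 75th percentile scaling, summed or separate transcript rows, no trend, no moderation, the replicate block, only the groups compared, and leaving out each sample. Protein sequences were not used here. Some genes of the lists enter the counts but are not reported here.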

Additional observations from a re-analysis of the deposited data

Results flagged for a closer look

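Groups of 3 samples were too small for a test of single outlying samples, so the results listed here are those in which the difference between KO and WT differed between CT0 and CT12 by the interaction term of limma (adjusted p under 0.05). Among the members these were Gys2, with an interaction of -1.82 (adjusted p = 0.00045), and Ppp1r3c, with 2.07 (adjusted p = 0.015). Among the other listed carbohydrate genes, Slc16a1 had 1.05 (adjusted p = 0.016, 0.052 without WT CT0 replicate 2 and 0.061 with an unmoderated model). Arntl, the targeted gene, had 2.5 (adjusted p = 7.2e-05), with a negative KO minus WT difference at CT0 and a positive one at CT12. For Gys2, Ppp1r3c and Slc16a1 the difference at CT0 did not pass the threshold and that at CT12 did.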

How the results depend on the processing

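Of the 17 calls on members, 12 passed under every alternative run, of which there were at most 23 per result. The exceptions were Slc2a2 between genotypes over both times, Ppp1r3b between the times in WT, Pygl and Ppp1r3c between the times over both genotypes, and the interaction of Ppp1r3c. An unmoderated model gave 2 members between the times over both genotypes (4 in the report) and 1 for the interaction (2 in the report). With 1 library left out, the number of members passing was 0 to 1 between genotypes at CT0, 3 to 4 at CT12 and 2 to 4 over both times, 3 to 5 between the times in WT, 1 in KO and 2 to 5 over both genotypes, and 2 for the interaction. The 2 between the times over both genotypes came without WT CT0 replicate 3, and the 1 at CT0 without KO CT0 replicate 1. Differences that were close to 0 changed sign with 1 library left out, as follows. Between genotypes at CT0, Slc2a2 ran from -0.34 to 0.15, Gys2 from -0.20 to 0.02 and Ppp1r3c from -0.29 to 0.03. At CT12, G6pc ran from -0.51 to 0.06 and Pck1 from -0.31 to 0. Over both times, Pklr ran from -0.54 to 0.02, G6pc from -0.02 to 0.27, Fbp1 from -0.08 to 0.09, Ppp1r3b from -0.03 to 0.24 and Arntl from -0.03 to 0.08. Between the times, G6pc in WT ran from -0.21 to 0.37, Ppp1r3b in KO from -0.06 to 0.48 and Fbp1 over both genotypes from -0.13 to 0.04, and the interaction of Pygl ran from -0.30 to 0.01. Over both times, Fbp1 was -0.04 with 75th percentile scaling and Arntl -0.03 with quantile normalization. None of these had passed the threshold. The replicate block gave 0, 3 and 2 members between genotypes at CT0, at CT12 and over both times, 4, 1 and 4 between the times in WT, in KO and over both genotypes, and 2 for the interaction, and the call it changed was that of Slc2a2 over both times (adjusted p = 0.053). The replicate numbers were read as names of samples only. Deviations of same-numbered samples had a mean correlation of 0.00976 (2 of 18 pairs over 0.1), beside -0.00481 (3 of 36 pairs) for different numbers. Such means over all genes cannot exclude a batch shared by same-numbered samples. The causes were not tested. Depth did not limit the members, whereas 3 samples per group and the spread of Pklr, G6pc and Slc2a2 left wide intervals.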
